A study of Rattus norvegicus with 8 samples.

Results

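Adipokines are proteins that fat cells and the tissue around them release into the blood or onto neighbouring cells. The 7 adipokine genes described here are Adipoq, Lep, Retn, Rbp4, Cfd, Nampt and Rarres2. They were chosen by name, and all 7 have a row among the 37209 named gene rows of the count table. The samples were 4 vein grafts and 4 control veins from Sprague Dawley rats, which are outbred, all taken 1 week after surgery. A graft was a vein joined to the divided left common carotid artery over short cuffs, so that it carried arterial blood, and a control was a jugular vein, which the labels describe as contralateral in the grafted animal. The source names number the grafts differently from the controls, so it is unclear which graft and control share an animal. The labels give no further genotype, drug or age, and they do not say how much of the surrounding fat was left on the veins. The grafts gave 10533451 to 16061189 counts per library and the controls 5981520 to 14267490, with the fewest in control 4.

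Many blood vessels lie in a sleeve of fat. Its adipocytes release adiponectin (Adipoq), which acts on muscle, liver and vessel wall through the receptors Adipor1 and Adipor2. They also release leptin (Lep), which reports fat stores to the brain through Lepr. Resistin (Retn) is made chiefly by adipocytes in rodents. Rbp4 carries retinol in the blood, Cfd (adipsin, complement factor D) is the protease that starts the amplification step of the alternative complement pathway, Nampt (also called visfatin) makes the NAD precursor nicotinamide mononucleotide, and Rarres2 (chemerin) attracts leukocytes through Cmklr1. Rbp4, Cfd, Nampt and Rarres2 are also made by cells other than adipocytes.

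Grafts held almost no transcripts of Adipoq, Lep and Retn, few of Rbp4 and a reduced level of Cfd, and all 4 controls lay above all 4 grafts for each of these genes. Nampt was lower on average, but the groups overlapped, and Rarres2 did not pass the test. By edgeR's quasi-likelihood test over all genes, with a Benjamini-Hochberg adjusted p under 0.05 as threshold, 6 of the 7 genes were lower in the grafts and 0 were higher. The background was large: 21.3% of the 15464 genes tested were lower in the grafts and 21% were higher. The libraries of 5 of the 7 genes separated with the grafts below, against 19.8% of all genes tested in that direction and 40.6% in either. Because the genes were chosen with earlier results of these data known, this count describes them and is not evidence about adipokines as a class. Values below are CPM, counts scaled to library size with TMM factors, and a fold change is graft minus control on the log2 scale. The samples are whole tissue, so fewer cells of a type and less RNA per cell cannot be told apart.

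Adipoq had 1.76, 0, 0.32 and 1.09 CPM in grafts 1 to 4, and 83.7, 154, 613 and 660.4 CPM in controls 1 to 4. The grafts rest on 29, 0, 4 and 17 counts, and the lowest control stood 47.5-fold above the highest graft. Within the controls the level spanned 7.89-fold, lowest in control 1 and highest in control 4. The log2 fold change was -8.80 ± 1.01 (SE; edgeR adjusted p = 0.00016). Without graft 1, which held most of the graft counts, it was -9.52 (edgeR adjusted p = 0.000652; range over all alternatives 2.36e-13 to 0.00641).

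Lep had 0.121, 0.15, 0.16 and 0.193 CPM in grafts 1 to 4, which are 2, 2, 2 and 3 counts, and 14.3, 14.5, 70.1 and 113 CPM in controls 1 to 4. Every graft was thus at or under the level that 3 counts give. Controls 1 and 2 were close together, and controls 3 and 4 stood well above them. Grafts differed from controls by a log2 fold change equal to -8.31 ± 0.95 (SE; edgeR adjusted p = 0.000158), and -7.64 without control 4 (edgeR adjusted p = 0.000245; range over all alternatives 2.2e-18 to 0.0184).

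Retn had 0.121, 0, 0.08 and 0.128 CPM in grafts 1 to 4, from 2, 0, 1 and 2 counts, and 9.44, 16.3, 26.2 and 40.9 CPM in controls 1 to 4. The controls spanned 4.33-fold, lowest in control 1 and highest in control 4, and the groups did not overlap. On the log2 scale the fold change was -7.90 ± 0.66 (SE; edgeR adjusted p = 3.83e-05).

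Rbp4 had 1.88, 0.977, 1.76 and 1.22 CPM in grafts 1 to 4 and 40.4, 37.8, 57.2 and 172 CPM in controls 1 to 4. It was counted in every graft, with 13 to 31 counts. The grafts averaged 1.9% of the control level, and control 4 stood far above the other 3 controls. On the log2 scale the fold change was -5.70 ± 0.59 (SE; edgeR adjusted p = 9.37e-05), and -4.93 without control 4 (edgeR adjusted p = 6.65e-05; range over all alternatives 9.55e-30 to 0.000845).

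Cfd had 23.2, 25.3, 27.9 and 40.8 CPM in grafts 1 to 4 and 93.5, 83.4, 194 and 225 CPM in controls 1 to 4. The grafts kept 19.7% of the mean control level, and the lowest control stood 2.04-fold above the highest graft. Its log2 fold change was -2.34 ± 0.35 (SE; edgeR adjusted p = 0.000663). As with Lep and Rbp4, controls 1 and 2 lay near each other and below controls 3 and 4.

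Nampt had 67.0, 89.5, 92.9 and 102 CPM in grafts 1 to 4 and 76.6, 146, 199 and 260.0 CPM in controls 1 to 4. Control 1 lay inside the range of the grafts, and the other 3 controls lay above it. Its log2 fold change was -0.95 ± 0.32 (SE; edgeR adjusted p = 0.036), with a 95% interval from -1.67 to -0.24. The call was lost in 10 of 16 alternatives, among them each fit without 1 graft or without control 2, 3 or 4, and scaling by library totals alone. With controls 3 and 4 left out the log2 fold change was -0.34 (edgeR adjusted p = 0.38; range over all alternatives 0.00189 to 0.38).

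Rarres2 had 92.5, 83.9, 76.9 and 90.3 CPM in grafts 1 to 4 and 111, 103, 82.3 and 101 CPM in controls 1 to 4. The groups overlapped, with control 3 below 3 of the 4 grafts, and the controls spanned only 1.35-fold. Its log2 fold change was -0.21 ± 0.12 (SE; edgeR adjusted p = 0.189), with a 95% interval from -0.49 to 0.06, which on the linear scale is 0.713 to 1.04 times the control level. A p that misses the threshold does not show equal levels, and the interval bounds what these libraries allow. Control 1, the lowest control for Adipoq, Lep, Retn and Nampt, was the highest for Rarres2.

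**Figure D1:**
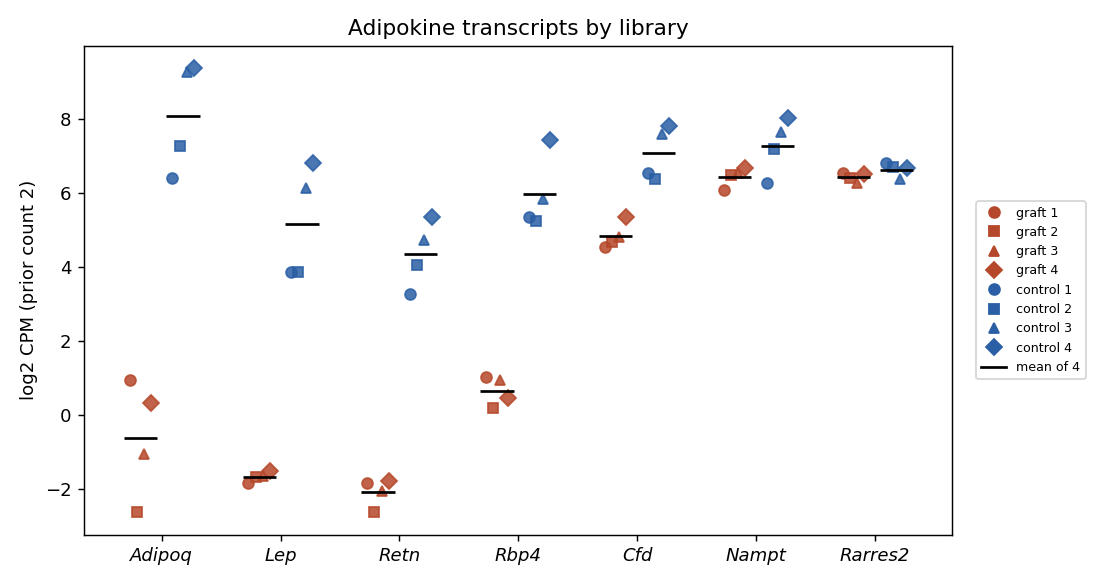
Level of the 7 adipokine genes in each library as log2 CPM with a prior count of 2 (vertical axis), grafts left of controls, with 1 symbol per library number and a black line at the mean of 4. The controls lie above all grafts for Adipoq, Lep, Retn, Rbp4 and Cfd, while control 1 lies among the grafts for Nampt and the groups overlap for Rarres2.

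Set against the mean of the grafts, Adipoq was 106-fold, 195-fold, 774-fold and 833-fold higher in controls 1, 2, 3 and 4. For Lep these folds of each control over the graft mean were 91.7, 93.2, 449 and 721, and for Retn they were 114, 198, 318 and 496. Each of the 4 controls alone thus placed these 3 genes more than 90-fold above the graft mean. For Rbp4 the folds were 27.7, 25.9, 39.2 and 118. For Cfd they were 3.19, 2.84, 6.62 and 7.69. For Nampt they were 0.871, 1.67, 2.27 and 2.96, so that the graft mean exceeded control 1 and lay below the others. The graft mean of Rarres2 exceeded control 3 by 0.06 on the log2 scale and lay below the other controls. With controls 3 and 4 left out of the fit, Adipoq, Lep, Retn, Rbp4 and Cfd remained lower, with log2 fold changes of -7.13, -6.45, -7.08, -4.73 and -1.59 and edgeR adjusted p of 0.000622, 8.92e-05, 0.000277, 0.000132 and 0.00218. These values are smaller in size than with all libraries by 1.5-fold or more on the linear scale.

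**Figure D2:**
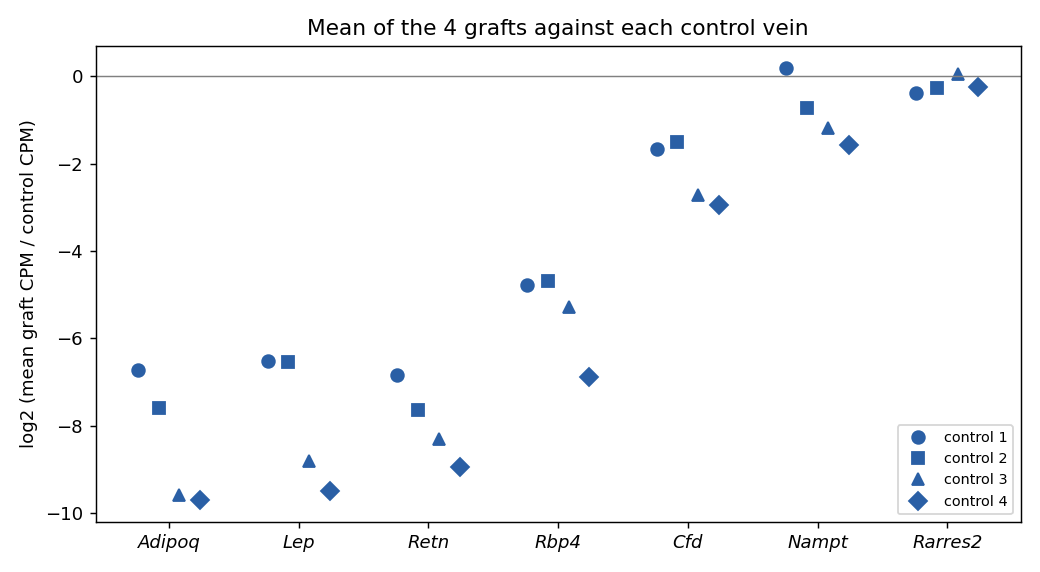
Mean CPM of the 4 grafts over the CPM of each control vein on the log2 scale (vertical axis), with 1 symbol per control and gene. Adipoq, Lep and Retn lie between -6.52 and -9.70 for every control, whereas Nampt lies above 0 for control 1 and Rarres2 above 0 for control 3.

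The spread among the controls was shared with other fat transcripts. Of 17 adipocyte markers, all tested, 13 were lower in the grafts, 0 were higher and 4 (Lpl, Acly, Scd and Cebpa) did not pass; their median log2 fold change was -2.17, against 0.01 over all genes tested. Their summed level was 1146 to 1607 CPM in the grafts and 2201 to 11774 CPM in the controls. Plin1, which coats the lipid droplet of adipocytes, had 1.03, 0.15, 0.4 and 0.128 CPM in grafts 1 to 4 and 45.3, 82.1, 166 and 237 CPM in controls 1 to 4, the same order among controls as for Adipoq, Lep and Retn. Cidec, another lipid droplet protein, ordered the controls in the same way. Among 6 brown adipocyte markers, 3 were tested and all 3 were lower in the grafts (1 with controls 3 and 4 left out). Their sums were 11.7 to 15.6 CPM in the grafts and 28.2 to 272 CPM in the controls. Ucp1, the heat-producing uncoupling protein, had 0 counts in all grafts and in controls 1 and 2 but 400 and 424 counts in controls 3 and 4. The adipocyte markers summed to 2201, 2352, 4518 and 11774 CPM in controls 1 to 4, and the brown adipocyte sums were also highest in controls 3 and 4. Not every marker followed, since Slc2a4 had 71.4, 48.4, 48.9 and 108 CPM in controls 1 to 4. White fat was not measured apart from brown. The part of these fat transcripts in the spread of the adipokines was not tested.

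Other tissues also differed. All 10 macrophage markers were higher in the grafts, summing to 3481 to 6513 CPM there and to 351 to 518 CPM in the controls. Of 5 tested neutrophil markers 3 were higher and 1 was lower, with sums of 15.5 to 99.9 CPM in the grafts and 7.97 to 22.2 CPM in the controls. Lpl, Lipe and Fabp4 kept 372, 40.7 and 100.2 CPM in the grafts on average, so the 17 markers did not all vanish as Plin1 did. Of 6 tested fibroblast and progenitor markers Lum was higher and Dcn and Cd34 were lower (0 higher and 1 lower with controls 3 and 4 left out), with sums of 2307 to 5206 CPM in the grafts and 4294 to 5848 CPM in the controls. All 7 smooth muscle markers and 3 of 6 endothelial markers were lower in the grafts. Both tested mesothelial markers were higher, and Msln had no control counts and 43.7 to 71.5 CPM in the grafts. None of 6 skeletal muscle markers passed, and they summed to 31.2 to 450.2 CPM in the grafts and 27.5 to 1363 CPM in the controls, highest in control 3. Of 4 tested hepatocyte markers, which bear on Rbp4 because liver makes most of the circulating protein, 1 was higher and 2 were lower, with sums of 117 to 207 CPM in the grafts and 130.2 to 269 CPM in the controls. The hepatocyte genes Fga, Fgb and Apoa2 were at 0 in every library. Alb and Serpina1 of the same list averaged 0 and 0.056 CPM in the grafts and 6.90 and 3.36 CPM in the controls. Hp went the other way, with 4.95 CPM in the grafts and 0.506 CPM in the controls. Tf did not pass, with 145 CPM in the grafts and 204 CPM in the controls. The extraction text of the labels speaks of brain tissue. Of 7 listed markers of brain cortex 3 were tested, 0 were higher and 1 was lower, with sums of 14.7 to 63.3 CPM in the grafts and 41.2 to 649.5 CPM in the controls. The neuronal Slc17a7, Snap25, Rbfox3 and Gad1 had at most 3, 9, 9 and 10 counts in any library. Syt1 and Gfap of the same list averaged 1.21 and 1.89 CPM in the grafts and 1.98 and 1.83 CPM in the controls. Neither passed. Nearly all of the sum in controls 3 and 4 was Mbp, a myelin protein also made in peripheral nerve, which had 10.8, 13.1, 55.7 and 13.5 CPM in grafts 1 to 4 and 37.1, 48.6, 647 and 592 CPM in controls 1 to 4. Mbp was thus high in the same controls as Adipoq, Lep and Ucp1, and its part in their spread was not tested.

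Each gene was also measured against the adipocyte transcripts of the same library, to set its change beside theirs. This was taken as log2 CPM of the gene minus the mean log2 CPM of the 17 markers, and compared by an exact two-sided permutation test over samples, whose smallest possible p with 4 against 4 is 0.0286. There were 7 such tests, and their p-values are not adjusted. Nampt stood at 2.59 ± 0.35 in the grafts and 0.44 ± 0.55 in the controls (SD, n = 4 each; exact permutation p = 0.0286), and Rarres2 at 2.57 ± 0.05 in the grafts and -0.21 ± 1.14 in the controls (exact permutation p = 0.0286). Neither pair of groups overlapped. Cfd stood at 0.99 ± 0.36 in the grafts and 0.24 ± 0.43 in the controls, with overlap (exact permutation p = 0.0571), and passed without graft 1 (difference of 0.90 log2 units; exact permutation p = 0.0286, range over all alternatives 0.0286 to 0.25). All 3 genes thus had higher means in the grafts relative to the markers, and the test passed for Nampt and Rarres2. The mean of the markers was itself 3.71 to 4.01 log2 units in the grafts and 5.99 to 8.21 in the controls. A gene that falls less than the markers rises against them, so these tests show no gain of Nampt or Rarres2 itself.

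The result for the other 4 genes turned on which marker stood for fat. Against the 17 markers they were lower in the grafts, with differences of -5.69 log2 units for Adipoq, -3.84 for Lep, -3.43 for Retn and -2.32 for Rbp4 (exact permutation p = 0.0286 for each, without overlap). The log2 fold changes of the 17 markers themselves ran from -8.53 for Cidec to -0.39 for Cebpa. Plin1 had -8.19 and Gpd1 -7.63, while Lpl had -1.11 and Scd -0.42. Adipoq, Lep and Retn, at -8.80, -8.31 and -7.90, thus lay near Cidec, Plin1 and Gpd1 and below the mean of the markers. Against Plin1 alone the differences were -0.88 for Adipoq (exact permutation p = 0.314), 0.97 for Lep (0.171), 1.38 for Retn (0.0286) and 2.49 for Rbp4 (0.0286). Cfd, Nampt and Rarres2 were higher against Plin1 by 5.55, 6.96 and 7.59 (exact permutation p = 0.0286 for each). Plin1 itself had 17, 2, 5 and 2 counts in grafts 1 to 4, so in the grafts the ratios of Lep and Retn to Plin1 compare counts near the prior count of 2 and say little about their direction. Rbp4 itself had 13 to 31 counts per graft, and its groups did not overlap against Plin1, but its sign changed with the reference. The direction for Lep, Retn and Rbp4 relative to adipocyte transcripts therefore depends on the markers chosen and is not settled by these data. The differences of Adipoq, Cfd, Nampt and Rarres2 had the same sign with both references. Plin1 is among the 17 markers and was itself lower in the grafts, so the same sign is not an independent check.

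**Figure D3:**
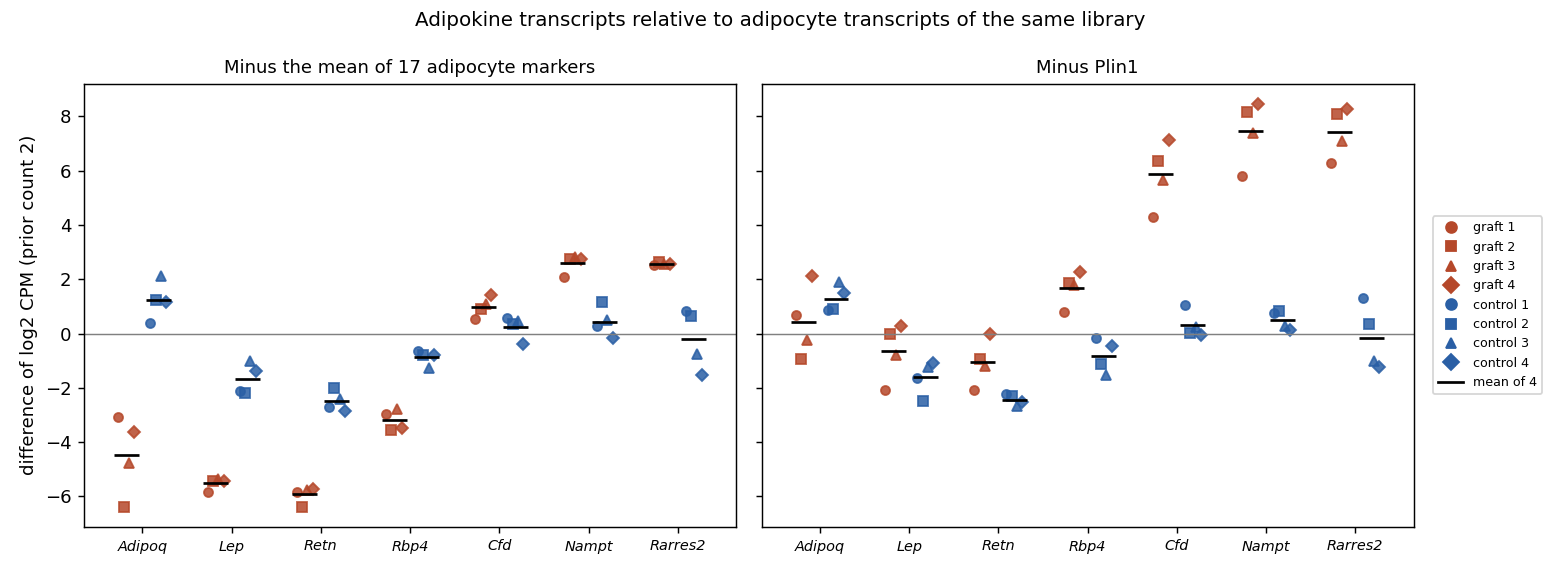
Difference of log2 CPM (prior count 2) between each adipokine gene and the mean of 17 adipocyte markers (left panel) or Plin1 (right panel) in the same library, grafts left of controls, black lines at the mean of 4. Nampt and Rarres2 are higher in the grafts in both panels, whereas Lep, Retn and Rbp4 are lower in the left panel and higher on average in the right one.

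Among 12794 other genes with established names, those whose profile over the 8 libraries was nearest to each member were named by the root mean square difference of mean-centred log2 CPM. Nearest to Adipoq were Pck1, an enzyme of glyceroneogenesis in fat (0.618 log2 units), Car3, a carbonic anhydrase abundant in fat and muscle (0.899), and Thrsp, a regulator of lipid synthesis (0.908). Nearest to Lep were Ankef1 (0.525), Cidec (0.539) and Retn (0.570), and nearest to Retn were Lgals12, a galectin of adipocytes (0.475), Acvr1c, an activin receptor of fat (0.491), and Lep (0.570). Lep and Retn were thus each among the 3 nearest genes of the other. Nearest to Rbp4 were Mlxipl, the glucose-responsive transcription factor ChREBP (0.472), Alb, serum albumin (0.5), and Klb, which helps receptors bind endocrine fibroblast growth factors (0.571). Alb, which is also among the hepatocyte markers above, had 0 counts in all 4 grafts and 2.32, 2.29, 9.54 and 13.4 CPM in controls 1 to 4. Klb also had 0 graft counts, and Ankef1 and Lgals12 had 2 and 3 over all grafts. At such counts the prior count of 2 largely sets the graft level. The small distances of Alb, Klb, Ankef1 and Lgals12 are therefore no sign of a special likeness.

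For the members that changed less, Cfd lay nearest to Tfcp2l1 (0.253), Tdrp (0.260) and Gstm7 (0.270). Among the nearest to Nampt were Aif1l (0.140) and Sdha, a subunit of succinate dehydrogenase (0.207). Rarres2 lay nearest to the GTPase Rac1 (0.058), Ccdc32 (0.065) and St3gal2 (0.066). Flat profiles lie close to many genes, so small distances for Rarres2 are no sign of a special likeness.

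The sequences before the transcription start are shown for the 4 genes that fell most. They are from RefSeq on GRCr8, 5′ to 3′ on the gene's strand, and stop before the outermost annotated start of the gene, so that those of Lep, Adipoq and Retn are shorter than that of Rbp4. RefSeq windows were matched for 6 of the 7 genes. Capitals mark the letters AGGTCA (half-site of nuclear receptors such as PPAR gamma), TTGCNNAA (bound by C/EBP factors), CCAAT and TATAA, each searched on both strands in the 250 bases before the start.
Lep, chr4:58626288-58626528, + strand: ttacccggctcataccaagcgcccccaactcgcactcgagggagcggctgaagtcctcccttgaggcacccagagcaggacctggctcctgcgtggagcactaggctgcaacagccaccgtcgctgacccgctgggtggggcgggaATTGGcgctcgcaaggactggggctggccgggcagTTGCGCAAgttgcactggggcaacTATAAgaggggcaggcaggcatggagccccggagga
Rbp4, chr1:245313552-245313801, - strand: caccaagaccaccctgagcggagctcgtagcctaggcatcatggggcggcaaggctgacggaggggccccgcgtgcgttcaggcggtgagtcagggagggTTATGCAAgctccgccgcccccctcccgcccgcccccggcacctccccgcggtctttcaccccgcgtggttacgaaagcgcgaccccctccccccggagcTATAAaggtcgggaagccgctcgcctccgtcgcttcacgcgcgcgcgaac
Retn, chr12:6508524-6508652, + strand: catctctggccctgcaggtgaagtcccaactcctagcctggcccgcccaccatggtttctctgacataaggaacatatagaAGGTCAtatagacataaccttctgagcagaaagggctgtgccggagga
Adipoq, chr11:91240245-91240419, - strand: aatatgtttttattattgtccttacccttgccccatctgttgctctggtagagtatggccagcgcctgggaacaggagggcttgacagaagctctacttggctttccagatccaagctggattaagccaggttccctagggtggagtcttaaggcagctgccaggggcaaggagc
The TTGCNNAA letters began 69 bases before the start in Lep and 150 bases before it in Rbp4, and 9.22% of 33469 RefSeq windows of the same length hold them. TATAA began 45 bases before the start in Lep and 50 bases before it in Rbp4, against 24% of windows. AGGTCA occurred 2 times in Retn, 169 and 7 bases before the start (the second lies beyond the part shown), against 14.1% of windows. It occurred once in Rarres2, 143 bases before the start, in a window that is not shown. CCAAT occurred 1 time in Lep and 2 times in Adipoq (69 and 42 bases before the start, beyond the part shown), against 34% of windows. Matches beyond the part shown, and the AGGTCA of Rarres2, lie past the outermost annotated start of their gene. The doubled half-site AGGTCANAGGTCA occurred in none of the 6 windows and in 0.0508% of all windows. Each match is only a run of letters, and none of these motifs was in the window of all 4 genes.

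Genes around the adipokines were described by 10 lists. The counts of each list are to be read against all genes tested, of which 21% were higher in the grafts and 21.3% lower. The receptors and binding partners come first. Of 8 tested, 1 was higher, 1 was lower and 6 did not pass (median log2 fold change 0.08). Lepr, the leptin receptor, had 5.89, 6.08, 12.2 and 8.28 CPM in grafts 1 to 4 and 206, 191, 135 and 138 CPM in controls 1 to 4, and a log2 fold change that came to -4.37 ± 0.27 (SE; edgeR adjusted p = 2e-05). Its groups did not overlap, but its order among the controls differed from that of Lep, with controls 1 and 2 the highest. The adiponectin receptors did not pass: Adipor1 averaged 118 CPM in the grafts and 113 CPM in the controls, and Adipor2 119 CPM in the grafts and 111 CPM in the controls. Cmklr1, the signalling receptor of chemerin, averaged 133 CPM in the grafts and 98.2 CPM in the controls and did not pass (edgeR adjusted p = 0.103). The gene that was higher, Stra6l, stands under an older symbol in the table and encodes a membrane receptor for retinol-binding protein described in mouse. Stra6l had 2.61, 4.43, 7.28 and 3.02 CPM in grafts 1 to 4 and no counts in the controls, at least 56.3-fold higher in the grafts against 3 counts over the whole control group. Ttr, the plasma partner of Rbp4, had 0 counts in all grafts and 2 to 7 counts in the controls and was not tested.

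Of 7 genes that fold adiponectin, 2 were higher, 1 was lower and 4 did not pass. The collagen lysine hydroxylase Plod3 had a log2 fold change of 0.97 and the disulfide isomerase P4hb of 0.75, while Gstk1, also called DsbA-L, which aids adiponectin assembly, had -0.77. Gstk1 lost its call with library totals alone (edgeR adjusted p = 0.0699), with controls 3 and 4 left out (0.118) and under the replicate block (0.0527; range over all alternatives up to 0.118). Of 9 genes of leptin signalling, 4 were higher and 3 lower. The inhibitors Ptpn1 and Socs3 had log2 fold changes of 1.14 and 1.84 and the kinase Jak2 of 0.74. The insulin receptor Insr had -1.43 and its substrates Irs1 and Irs2 had -1.10 and -0.43. The call for Irs2 was lost with library totals alone and in 3 other alternatives. Of 9 genes of adiponectin signalling, 1 was higher and 6 were lower, with a median of -0.77. Prkaa2, a catalytic subunit of AMP-activated kinase, had 13.6 CPM in the grafts and 181 CPM in the controls on average, a log2 fold change equal to -3.72 ± 0.33 (SE; edgeR adjusted p = 4.86e-05). Prkab2 had -1.41, the ceramidase Acer2 -1.67 and Prkab1 0.57.

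Complement genes were mostly higher in the grafts, while Cfd was lower. Of 9 genes of the alternative pathway and its receptors, 7 were higher and 1 was lower, with a median of 1.93, against 21% of all genes tested that were higher. The receptors for the released fragments, C3ar1 and C5ar1, averaged 86.9 and 64.5 CPM in the grafts and 7.25 and 7.19 CPM in the controls, and the log2 fold change of C3ar1 came to 3.59 ± 0.24 (SE; edgeR adjusted p = 2.1e-05). Cfi, the protease that degrades C3b, had 3.02 to 20.2 CPM in the grafts and 3 counts in all controls together. Cd46, a regulator on the cell surface, was lower by 1.16 on the log2 scale. Cfb, the substrate of factor D, was among those higher, with 119 CPM in the grafts and 57.7 CPM in the controls on average (edgeR adjusted p = 0.0115), and was named after its values were seen. C3ar1 and C5ar1 are also made by macrophages, whose markers were all higher in the grafts, and the part of these cells was not tested.

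Of 12 genes of NAD metabolism around Nampt, 5 were higher, 3 lower and 4 did not pass. The NAD-consuming ectoenzymes Cd38 and Bst1 were at 1.32 ± 0.16 (SE; edgeR adjusted p = 0.000192) and, for Bst1, at 1.87 ± 0.27 (SE; edgeR adjusted p = 0.00059) on the log2 scale, and Naprt, which makes NAD from nicotinic acid, had 1.24. Sirt1, an NAD-dependent deacetylase, had -1.13, Nnmt, which methylates nicotinamide, -0.81, and Nmnat1, which acts after Nampt, -0.52. Nmnat1 lost its call with library totals alone and in 4 other alternatives. With controls 3 and 4 left out, 3 genes of the list were higher in place of 5.

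Of 13 genes of retinol handling, 3 were higher, 5 lower and 5 did not pass (median log2 fold change -0.53). Among those higher, the receptors Rxra and Rara had log2 fold changes of 0.82 and 0.86. Rbp7, a carrier of adipocytes and endothelium, had -1.84, Aldh1a1, which makes retinoic acid, -3.55, and the receptor Rarb -1.11. Aldh1a1 had 0.225 to 0.971 CPM in the grafts and 0.824, 1.79, 19.5 and 11 CPM in controls 1 to 4, so it rests on controls 3 and 4. Without control 3 its log2 fold change was -2.64, and without controls 3 and 4 it was -0.90 and not past the threshold (edgeR adjusted p = 0.344). Aldh1a1 lost its call with limma voom too, Rbp7 lost its call with those controls left out, and Rarb lost its call in 5 alternatives. The count of lower genes in the list was 2 with library totals alone, without graft 1 or with controls 3 and 4 left out, and 3 without graft 2 or without control 4.

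Of 4 tested proteases that process chemerin, cathepsin S (Ctss) and urokinase (Plau) were higher, with log2 fold changes of 2.77 and 1.23, and Plg, plasminogen, was lower by 2.28, at 0.329 CPM in the grafts and 1.62 CPM in the controls on average. Macrophages also make Ctss. Klk1, Ctsg, Elane and Tpsab1 had too few counts to be tested.

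Among 23 tested genes of other secreted proteins of fat, 6 were higher, 6 lower and 11 did not pass. Over all genes tested, 21% were higher and 21.3% were lower. C1qtnf3, an adiponectin relative, had 431, 126, 62.9 and 267 CPM in grafts 1 to 4 and 3.60, 3.29, 4.60 and 3.17 CPM in controls 1 to 4, and its log2 fold change was 5.90 ± 0.61 (SE; edgeR adjusted p = 9.55e-05). It thus ran opposite to Adipoq, and the lowest graft stood far above the highest control. The chemokine Ccl2 and the secreted Metrnl were higher too, by 3.11 and 1.64. Agt, angiotensinogen, had 0.971 to 2.44 CPM in the grafts and 22.5, 23.7, 21.0 and 72.1 CPM in controls 1 to 4, and its log2 fold change was -4.38 ± 0.51 (SE; edgeR adjusted p = 0.000182), or -3.75 without control 4. Nrg4, a growth factor of brown fat, had 0.32 to 0.77 CPM in the grafts and 1.65, 6.07, 12.2 and 24.6 CPM in controls 1 to 4, with a log2 fold change of -4.39, and of -3.66 without control 4. C1qtnf2, another relative of adiponectin, was lower by 1.69 on the log2 scale.

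Of 11 adipocyte transcription factors, 3 were higher, 6 lower and 2 did not pass (median log2 fold change -0.85). Mlxipl was at -6.53 ± 0.89 (SE; edgeR adjusted p = 0.000413), or at -5.63 without control 4. Klf15 had -2.01 and Ebf2 -1.72. Those higher were Rxra, Cebpb and Cebpd, with 0.82, 1.58 and 1.34, of which Cebpb and Cebpd are also induced in inflamed tissue. Cebpd lost its call with limma voom, without control 2 or 3, and with controls 3 and 4 left out. Pparg, the master regulator of adipocytes and named after its values were seen, was among those lower, with a log2 fold change of -1.90 (edgeR adjusted p = 0.00986). It had 12.4, 14, 15.9 and 22.4 CPM in grafts 1 to 4 and 20.7, 33.3, 84.8 and 104 CPM in controls 1 to 4, so the groups overlapped at control 1. With controls 3 and 4 left out, 3 of the list were lower in place of 6.

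**Figure D4:**
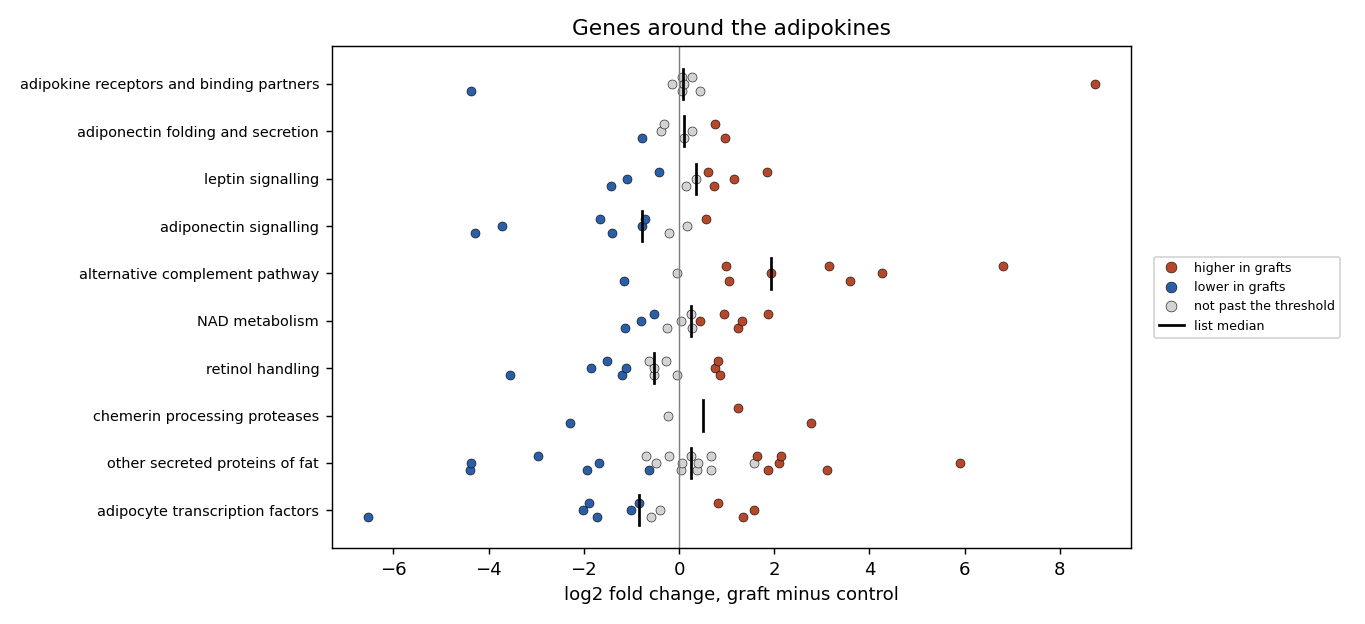
Log2 fold change of graft minus control (horizontal axis) for the tested genes of the 10 lists, 1 point per gene, coloured by edgeR call, with a black bar at each list's median. Complement genes lie mostly to the right, with a median of 1.93, and the point at the far right of the receptor list is Stra6l, whose fitted value is set by a control group without counts.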

How the data were processed

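RNA of 4 graft veins and 4 control veins was sequenced. The authors deposited unnormalized counts, as whole numbers for each gene. Alignment was to Rnor_6.0 with HISAT2 2.0.4, per the submitters' processing notes. No counter, annotation or strand setting is given in the sources used here, so reads of overlapping or antisense genes are not told apart. Groups come from the titles. Nothing shows that the title numbers pair the samples, so the main test is unpaired.

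The analysis used edgeR 4.0.16 under R 4.3.3: filterByExpr (minimum count 10, 15464 genes kept, all 7 members among them), TMM scaling, glmQLFit and glmQLFTest, with Benjamini-Hochberg adjustment across the 15464 genes. Standard errors are the fold change divided by the root of F. In library CPM, 3 counts correspond to 0.182 to 0.560. Alternatives used limma 3.58.1, DESeq2 1.42.0, other scalings, no filter and fewer libraries. The fits were tested on simulated data. Levels of different genes were not compared, since transcript lengths were not used.

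Members and lists were chosen with earlier results of these data known. Named genes are the members, up to 3 genes per list and direction with the smallest p, and the 3 nearest profiles per member; a few genes that meet this rule are not reported here. The series speaks of 4 pairs, but no label ties a graft to its control or an animal to a library, so p-values measure only the spread between these libraries. Bounds against 3 counts cover counting error only.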

Additional observations from a re-analysis of the deposited data

Results flagged for a closer look

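Single libraries standing apart from the other 3 of their group were looked for in 28 sets of 4 values, where about 1 in 20 stands apart by chance, and 3 were found. Rbp4 in control 4 stood at 172 CPM, against 37.8 to 57.2 CPM in the other controls. Retn relative to the 17 adipocyte markers stood at -6.38 log2 units in graft 2, where it had 0 counts. Nampt relative to the same markers stood at 2.06 log2 units in graft 1, below the other grafts.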

How the results depend on the processing

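Directions and calls of Adipoq, Lep, Retn, Rbp4 and Cfd held in all 16 alternatives, and Rarres2 never passed. Nampt missed the threshold with library totals alone (log2 fold change -0.72), limma voom (-0.83) and controls 3 and 4 left out (-0.34), and ran from -1.20 to -0.67 with 1 library left out. The share of calls that were higher in grafts was 67.8% with library totals alone, which moved the median of all genes to 0.23, against 49.7% with TMM. Relative to adipocyte transcripts, Plin1 alone gave the opposite sign for Lep (0.97), Retn (1.38) and Rbp4 (2.49) and ended the call of Adipoq (-0.88), but grafts had only 2 to 17 counts of Plin1 and 0 to 3 of Lep and Retn, near the prior count of 2. Cfd passed with a prior count of 0.5 (0.88), with Plin1 alone (5.55) and without graft 1 (0.90), and ran from 0.54 to 0.90 with 1 library left out. With the replicate number as a block, a paired exact test of 4 pairs cannot go below 0.125, so Adipoq (-5.69), Lep (-3.84), Retn (-3.43), Rbp4 (-2.32), Nampt (2.15) and Rarres2 (2.78) could not pass. In the edgeR fit the replicate block gave 5902 calls against 6538 and changed no member's call. Same-numbered libraries shared deviations from their group means at r of -0.07, 0.18, 0.07 and 0.05, which gives no evidence that the numbers pair the samples and does not show that they are unpaired. Among list counts not given above, receptors that were higher numbered 2 with library totals alone or controls 3 and 4 left out and those lower numbered 2 without a low-count filter, against 1 each. Chemerin proteases that were lower numbered 2 without that filter or without graft 1, 2 or 4 or control 1, against 1, and adiponectin folding genes that were lower numbered 2 without control 1, against 1. Of the alternatives for other named genes, 694 kept direction and side of the threshold and 26 lost the call. The cause was not tested. Depth limits Adipoq, Lep and Retn in grafts, where libraries had 0 to 29 counts.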
